A study of Arabidopsis thaliana with 6 samples.

Results

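SAG29, SWEET17 and SWEET11 are 3 of the 17 genes of the SWEET family of sugar carriers in Arabidopsis thaliana. They were taken by name from the annotation of the array, where each has 1 row, out of 16550 genes that have a row naming a single gene. They were picked with their induced and uninduced values known, so the difference of each is given as a description and not as a test. The arrays measured RNA from suspension cells (labelled as culture cell, Alex) grown in the dark and carrying an estrogen-inducible ATHB8-GFP fusion. In the induced group (3 arrays) the cells had received 5 µM estrogen for 24 h, and in the uninduced group (3 arrays) they were sampled at 24 h without it. Both groups carry the fusion, and neither cells without the fusion nor the effect of estrogen on such cells were analysed here. The labels do not give the number of transformed lines behind the arrays. ATHB8 belongs to the HD-ZIP III transcription factors and is known from procambium, and the study asked which genes act downstream of it.

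SWEET proteins are membrane carriers that let sugars pass along their concentration gradient, out of cells, into them, or between the vacuole and the cytosol. In plants they are known for moving sucrose out of leaf parenchyma toward the phloem, feeding seeds, pollen and nectaries, and buffering vacuolar hexoses. The family is divided into clades: carriers of clade III, among them SWEET11 and SWEET15 (the other name of SAG29), mainly move sucrose across the plasma membrane, and those of clade IV, SWEET16 and SWEET17, sit in the vacuolar membrane.

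Each value is a log2 signal of 1 row of the array, and 38408 rows were measured. Both replicate 1 arrays stood apart from the other 4 on the first principal component, which took 41.4% of the variance. In 12229 rows (31.8%) their 2 values were identical, which happened in no more than 23 rows between other arrays. Results are therefore also given for replicates 2 and 3 alone. With 3 arrays a group, precision is limited by their number. The labels do not say that the replicates were separate cultures, so the p-values cover the spread among these arrays alone, and that spread may be technical. No background level was analysed here, and the signal of different rows depends on their probes, so transcript levels are not compared between genes. A row's percentile among all rows is given only to describe how bright its signal was on the array, and does not show whether a gene was expressed. Of all rows 20927 carry no gene name and 759 name several genes, and only rows naming a single gene were used. No such row names ATHB8, so its induction was not analysed here.

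SAG29 (AT5G13170, SWEET15), a plasma membrane sucrose carrier first known as senescence-associated gene 29, was far higher in the induced cells. Its log2 signal was 12.03, 11.92 and 11.81 in induced replicates 1, 2 and 3, against 8.52, 8.18 and 8.43 in the uninduced ones. The groups were far apart, with 3.29 log2 units between the lowest induced and the highest uninduced value. The group means were 11.92 ± 0.11 in induced and 8.37 ± 0.17 in uninduced cells (SD, n = 3 each), a difference of 3.54 ± 0.13 on the log2 scale (SE of the limma fit) or 11.7-fold. In the same-numbered pairs 1, 2 and 3 the difference was 3.52, 3.73 and 3.38, and without replicate 1 it was 3.56. Its signal exceeded that of 98.5% of all rows in the induced mean and that of 77.3% in the uninduced mean.

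SWEET17 (AT4G15920), a fructose carrier of the vacuolar membrane, was modestly higher in the induced cells, with hardly any spread between arrays. Its log2 signal was 6.35, 6.34 and 6.35 in induced replicates 1, 2 and 3, against 5.72, 5.73 and 5.72 in the uninduced ones. The groups did not overlap, and the gap of 0.61 between them was nearly as wide as the difference of the means. These means were 6.35 ± 0.0074 in induced and 5.72 ± 0.0096 in uninduced cells (SD, n = 3 each), which gives a difference of 0.62 ± 0.093 (SE of the fit) or 1.54-fold. The pairs 1, 2 and 3 gave 0.63, 0.61 and 0.64, and replicates 2 and 3 alone gave 0.62. The SD within groups, 0.0085 pooled over both, was the smallest of all 38408 rows, whose median was 0.222. The limma fit draws each row's spread toward that of the other rows, which is why its SE is much larger than the SDs of this gene. The signal lay near the middle of the array, above 55.6% of rows in the induced mean and 48.6% in the uninduced mean.

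SWEET11 (AT3G48740), a plasma membrane sucrose carrier that acts with SWEET12 in phloem loading, had a dim signal with no separation between the groups. Its log2 signal was 3.23, 2.44 and 2.32 in induced replicates 1, 2 and 3, against 3.23, 3.21 and 2.87 in the uninduced ones. Induced replicates 2 and 3 were the lowest of the 6 arrays, while induced replicate 1 held exactly the same value as uninduced replicate 1. The means were 2.67 ± 0.49 in induced and 3.10 ± 0.20 in uninduced cells (SD, n = 3 each), a difference of -0.44 ± 0.26 (SE of the fit). By pair the difference was 0.00, -0.77 and -0.54, and without replicate 1 it was -0.66. Only 9.26% of rows had a lower induced mean and 15.1% a lower uninduced mean. SWEET12 was not analysed here, and whether near-identical SWEET sequences contribute to each other's rows was not tested.

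**Figure D1:**
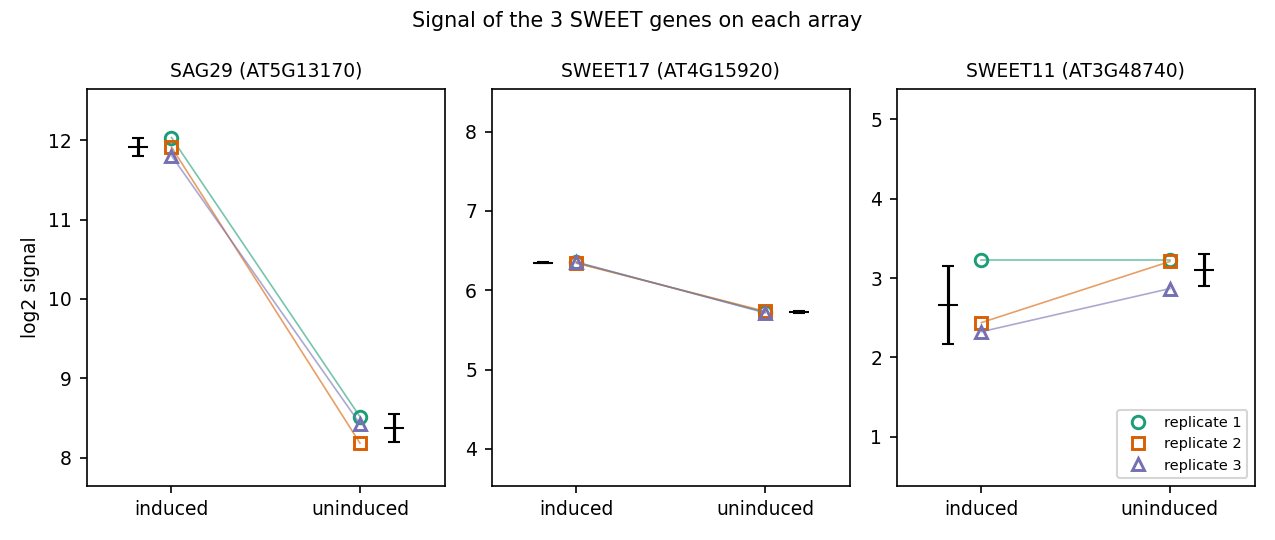
Log2 signal (vertical axis, each panel spanning the same range) of SAG29, SWEET17 and SWEET11 in the 3 induced arrays (left) and the 3 uninduced arrays (right). Coloured symbols joined by lines are same-numbered replicates, and black bars are the mean ± SD. SAG29 differs by 3.54, SWEET17 by 0.62 with nearly coinciding replicates, and SWEET11 overlaps between groups with equal replicate 1 values.

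In the limma fit across all rows 2 of the 3 genes passed an adjusted p of 0.05, SAG29 (limma adjusted p = 7.86e-04) and SWEET17 (0.0489), both higher in the induced cells. Over all rows 0.961% passed, 0.633% higher and 0.328% lower. The genes were chosen on this contrast, so nothing is read from the count. SWEET11 had a limma adjusted p of 0.88. With the replicate number as a block, where 0.63% of all rows passed, SAG29 had a limma adjusted p of 0.0258 and SWEET17 one of 0.0673. When replicates 2 and 3 were fitted alone 0.208% of all rows passed, and the values were 0.0389 and 0.145. SWEET17 also missed it when any 1 of the 6 arrays was left out, with limma adjusted p from 0.125 to 0.256, although its difference then stayed between 0.62 and 0.63. In bulk RNA of this kind, a change in the share of cells that express a gene cannot be told apart from a change in RNA per cell.

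Of the 17 SWEET genes, 16 have a row, and the 13 beyond the 3 described above showed no called change. Of these 13, 0 passed in limma, beside 0.961% of all rows, and 0 had an unadjusted p under 0.05, beside 8.48%. With shares this low, nothing is read from these counts. All of the 13 but SWEET16 had a mean signal below percentile 30 of all rows. The differences of the 13 lay between -0.30 and 0.31, with 7 higher, 6 lower and a median of 0.00. The median over all 16 was 0.01, beside -0.01 over all genes with a row naming a single gene. In 4 of the 16, SAG29, SWEET17, SWEET16 and SWEET2, all induced arrays lay above all uninduced ones, and in 0 all lay below. SAG29 and SWEET17 were picked with their values known, so nothing is read from this count. Among the 13 genes beyond the 3, SWEET16 and SWEET2 were the 2 that lay apart, by gaps of 0.00099 and 0.025. Over all rows, 5.82% lay apart upward and 6.43% downward.

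SWEET16 (AT3G16690), the vacuolar partner of SWEET17 in clade IV, had the next largest positive difference. Its log2 signal was 6.70, 6.88 and 6.73 in induced replicates 1, 2 and 3, against 6.46, 6.23 and 6.69 in the uninduced ones. The difference was 0.31 ± 0.15 (SE, n = 3 per group; limma adjusted p = 0.728), and the groups were kept apart by only a narrow gap between induced replicate 1 and uninduced replicate 3. By pair it was 0.24, 0.65 and 0.03, so pair 2 differed most, and without 1 array in turn it lay between 0.19 and 0.43. Whether SWEET17 and SWEET16 responded differently was not tested.

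In clade III, beside SAG29 and SWEET11, SWEET9 (known from nectaries) differed by -0.30 ± 0.33 (limma adjusted p = 1.0), with pair values of -0.10, -0.45 and -0.35. SWEET10, SWEET13 and SWEET14 differed by 0.01 ± 0.26, -0.11 ± 0.24 and -0.04 ± 0.32 (SE, n = 3 per group). SWEET13 and SWEET14 are known from anthers, where they also carry gibberellin.

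In clade I, SWEET1, a glucose carrier, differed by -0.24 ± 0.42, and its pairs did not share a direction, at -0.59, -0.63 and 0.51. Without 1 array in turn SWEET1 lay between -0.63 and 0.15. SWEET2, a vacuolar glucose carrier known from roots, differed by 0.05 ± 0.095. Its induced values of 4.13, 4.13 and 4.14 all lay above the uninduced values of 4.04, 4.09 and 4.10, a separation of hundredths of a log2 unit. SWEET3 differed by 0.02 ± 0.18. In clade II, the differences were 0.12 ± 0.16 for SWEET4, 0.00 ± 0.54 for AtVEX1 (SWEET5, of the vegetative cell of pollen), -0.04 ± 0.12 for SWEET6, -0.04 ± 0.24 for SWEET7 and 0.20 ± 0.19 for SWEET8 (also named RUPTURED POLLEN GRAIN1). AtVEX1 varied with the replicate and not the group: it read 3.13, 4.45 and 4.57 in the induced and 3.11, 4.32 and 4.71 in the uninduced replicates 1, 2 and 3.

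**Figure D2:**
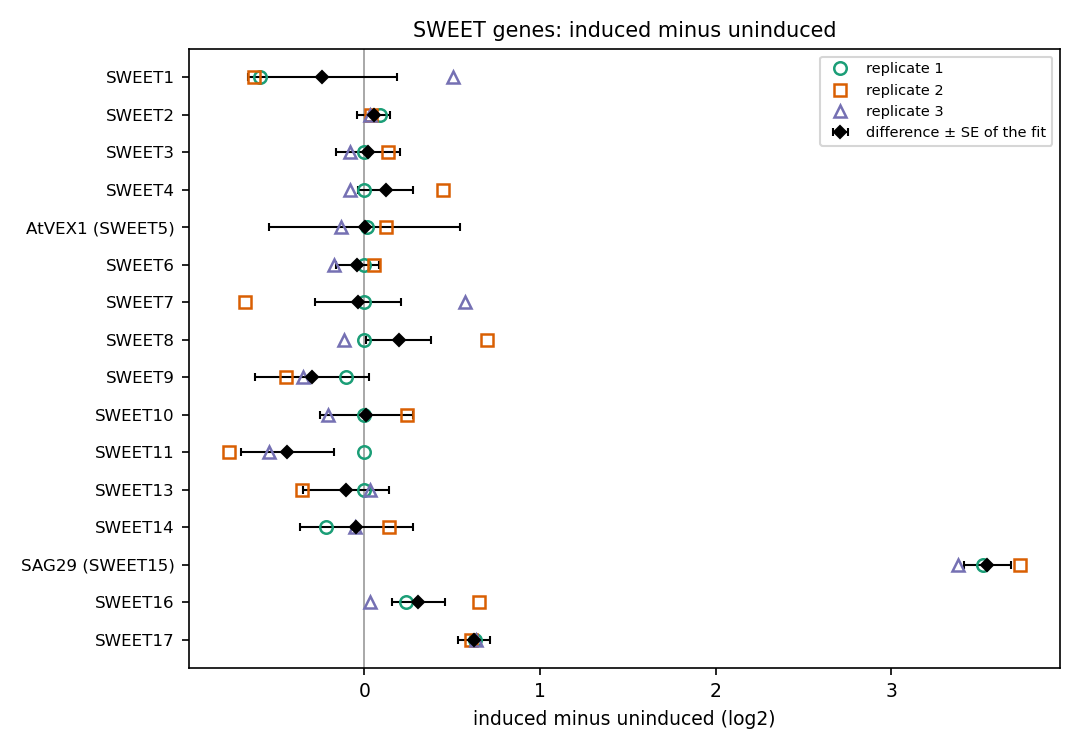
Induced minus uninduced log2 difference (horizontal axis) for the 16 SWEET genes with a row. Black diamonds with bars are the difference ± SE of the fit, and coloured symbols are the same-numbered replicate pairs. SAG29 stands at 3.54 and SWEET17 at 0.62, and the other 14 lie between -0.44 and 0.31.

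Many of the dim SWEET rows held equal values in the replicate 1 arrays. In 13 of the 16 genes, all but SAG29, SWEET16 and SWEET17, the mean signal lay below percentile 30 of all rows, a level chosen after the values were seen. Of these 13, 8 held the same value in both replicate 1 arrays: SWEET3, SWEET4, SWEET6, SWEET7, SWEET8, SWEET10, SWEET11 and SWEET13. These 8 are 61.5% of the 13, which lie in deciles 1 to 3 of mean signal. Over all rows the share was 54.7%, 58.5% and 51.9% in deciles 1, 2 and 3. Over all 16 SWEET genes it was 50.0%, beside 44.4% of all genes with a row naming a single gene. SAG29, SWEET16 and SWEET17 had different values in the replicate 1 arrays. For SWEET11 the pair 1 difference of 0.00 enters the mean, and the cause of the equal values was not tested.

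**Figure D3:**
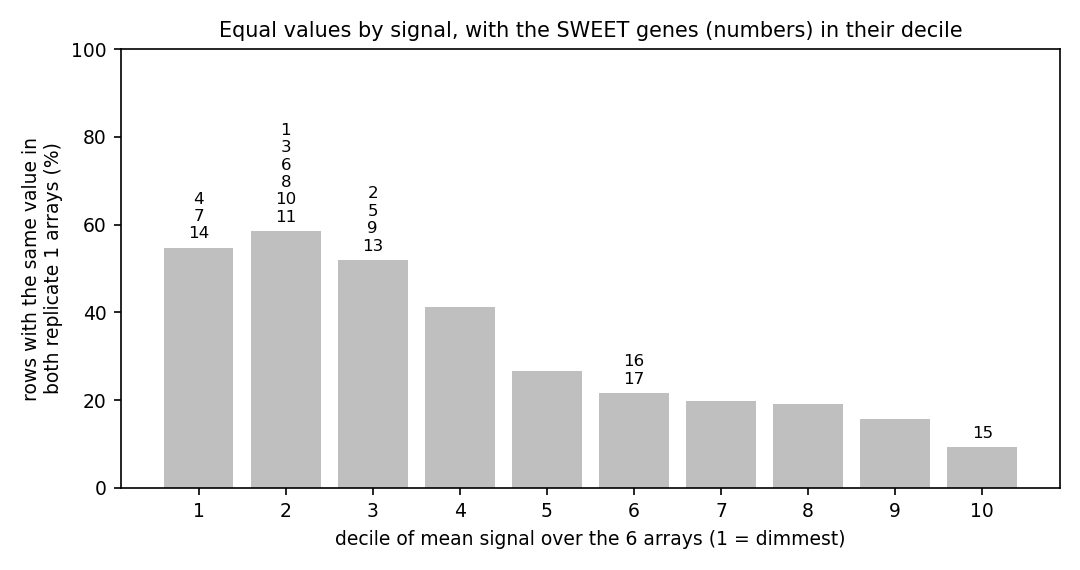
Share of rows (%, vertical axis) with exactly the same value in both replicate 1 arrays, by decile of mean signal over the 6 arrays. Numbers above a bar are the SWEET genes in that decile (15 is SAG29). The share is 58.5% in the second decile, which holds SWEET11, 21.6% in the sixth, which holds SWEET16 and SWEET17, and 9.27% in the tenth, which holds SAG29.

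Sugar carriers outside the SWEET family were compared from lists drawn up by locus code, and 0 of the 11 measured passed in limma, beside 0.961% of all rows. With a share this low, nothing is read from that count. All 9 listed SUC sucrose carriers lack a row naming them alone and were not analysed here. Of 14 genes listed as STP hexose carriers 4 were measured, all 4 slightly lower, with a median of -0.08. Of these 4, 0 had an unadjusted p under 0.05, beside 8.48% of all rows. AT5G26250 (-0.22 ± 0.26), AT3G19940 (-0.12 ± 0.21) and AT1G34580 (-0.05 ± 0.12) had the smallest p among them, each with a limma adjusted p of 1.0. Of 10 listed polyol and inositol carriers 1 was measured, AT2G18480, at -0.28 ± 0.33.

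Among the 6 measured of 10 listed vacuolar and ERD6-like carriers, 4 lay higher and 2 lower, with a median of 0.10. TMT2, which loads monosaccharides into the vacuole, was the only 1 with an unadjusted p under 0.05, beside 8.48% of all rows. Its log2 signal was 8.78, 8.77 and 8.73 in induced replicates 1, 2 and 3, against 8.47, 8.46 and 8.43 in the uninduced ones. The groups did not overlap and the pairs gave 0.31, 0.30 and 0.29, but at 0.30 ± 0.094 (SE, n = 3 per group) the limma adjusted p was 0.344. TMT1, of the same type, differed by 0.14 ± 0.10 (0.956) and AT5G17010 by 0.23 ± 0.13 (0.827). The other 3 carriers of the list, SFP1, SFP2 and TMT3, differed by 0.06 ± 0.11, 0.00 ± 0.12 and -0.13 ± 0.14.

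Of 20 genes listed for sucrose cleavage only 2 were measured, and neither passed in limma, beside 0.961% of all rows. The gene cwINV6 is named among the cell wall invertases but annotated as a fructan exohydrolase, so it need not cleave sucrose. It had a log2 signal of 10.51, 10.45 and 10.40 in induced replicates 1, 2 and 3, against 11.03, 11.00 and 10.99 in the uninduced ones. All induced arrays lay below all uninduced ones. The difference was -0.55 ± 0.097 (SE, n = 3 per group; limma adjusted p = 0.0742), with pairs of -0.52, -0.55 and -0.59. The gene cwINV6 passed in 6 of 17 alternatives, in each of which more rows were called than in the main fit. Over the 17 its limma adjusted p lay between 0.0102 and 0.343. AT1G62660 differed by -0.51 ± 0.14 (0.25), with pairs of -0.50, -0.52 and -0.50, and of the 17 alternatives passed only the one that blocks replicate 1 against the rest (0.0365). Both genes had an unadjusted p under 0.05, beside 8.48% of all rows.

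Of 16 genes listed for sucrose synthesis and hexose phosphorylation 7 were measured and 0 passed in limma, with 2 higher, 5 lower and a median of -0.10. Of the 7, 1 had an unadjusted p under 0.05, beside 8.48% of all rows. That gene was AT2G31390, at 10.61, 10.58 and 10.49 in induced and 10.98, 10.91 and 10.93 in uninduced replicates 1, 2 and 3. All 3 induced arrays lay below the uninduced ones, with a difference of -0.38 ± 0.099 (limma adjusted p = 0.23). AT5G51830 differed by -0.26 ± 0.14 (0.812) and the sucrose phosphate synthase gene ATSPS4F by -0.21 ± 0.15 (0.963). Over all 20 measured sugar carriers and enzymes outside the SWEET family, 0 passed in limma, beside 0.961% of all rows, a share too low to read anything from the count. Of the 20, 6 lay higher and 14 lower with a median of -0.07, beside 7752 higher and 8798 lower with a median of -0.01 over all genes with a row naming a single gene.

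**Figure D4:**
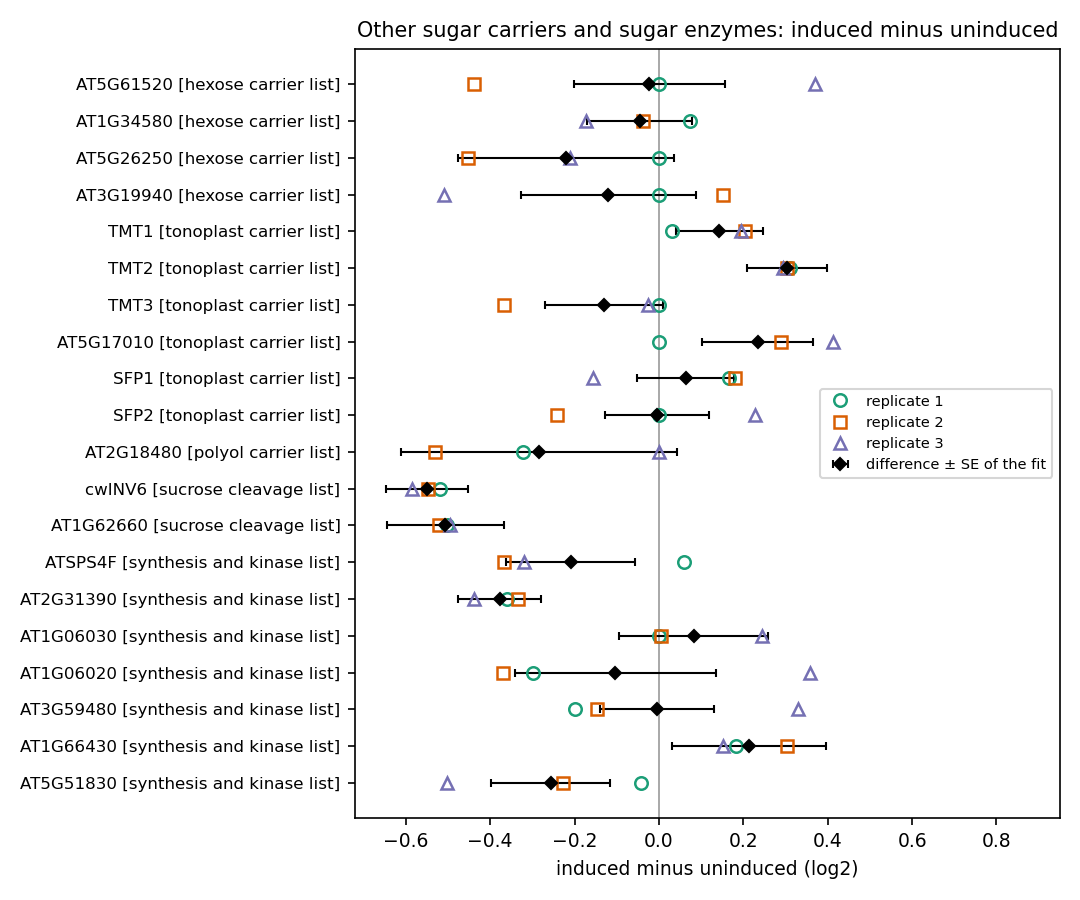
Induced minus uninduced log2 difference (horizontal axis) for the 20 measured sugar carriers and enzymes outside the SWEET family, with the list each belongs to. Black diamonds with bars are the difference ± SE of the fit, and coloured symbols are the same-numbered replicate pairs. TMT2 stands at 0.30 and cwINV6 at -0.55, and 0 of the 20 passed, beside 0.961% of all rows.

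SAG29 is known to rise in ageing leaves and under abscisic acid and osmotic stress, and other genes of those responses were set beside it. Of 21 listed senescence genes, a list that does not hold SAG29, 2 were measured, both lower in the induced cells. Neither was called in limma, beside 0.961% of all rows called. WRKY6, a transcription factor of senescence and defence, read 10.87, 10.90 and 10.90 in induced replicates 1, 2 and 3, against 11.37, 11.48 and 11.47 in the uninduced ones. Its groups did not overlap, and it differed by -0.55 ± 0.098 (SE, n = 3 per group; limma adjusted p = 0.0742). WRKY6 passed in 6 of 17 alternatives, in each of which more rows were called than in the main fit. Over the 17 its limma adjusted p lay between 0.0088 and 0.336. SAG101, a lipase-like gene named like SAG29 for senescence, differed by -0.36 ± 0.26 (0.964). Without 1 array in turn SAG101 lay between -0.59 and -0.16.

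Of 20 listed genes of abscisic acid and water deficit 4 were measured and 0 passed in limma, beside 0.961% of all rows. Of the 4, 1 had an unadjusted p under 0.05, beside 8.48% of all rows, and the median difference was -0.04. COR47, a dehydrin, read 5.74, 5.64 and 5.53 in induced replicates 1, 2 and 3, against 6.41, 5.92 and 6.16 in the uninduced ones. The induced arrays all lay below the uninduced ones, at -0.53 ± 0.15 (limma adjusted p = 0.302). COR15A and KIN2 differed by 0.07 ± 0.16 (1.0) and -0.05 ± 0.28 (1.0), and both held equal values in the replicate 1 arrays. The 5 listed sugar starvation genes were not analysed here.

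Markers of other cell types could hardly be read. Of 20 listed markers of phloem, xylem, procambium and green leaf cells 1 was measured, RCA, the activase of the carbon fixing enzyme. RCA read 5.60, 5.87 and 5.70 in induced replicates 1, 2 and 3, against 5.22, 4.93 and 5.25 in the uninduced ones. The groups did not overlap, with 0.36 between the lowest induced and the highest uninduced value. RCA differed by 0.59 ± 0.14 (SE, n = 3 per group; limma unadjusted p = 0.00486, adjusted p = 0.172), about as much as SWEET17. Its part in the values of the SWEET genes was not tested, and the 5 listed markers of phloem, the tissue SWEET11 is known from, were not analysed here because no row names one of them alone.

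The genes most like each of the 3 were found by the root mean square difference between profiles over the 6 arrays, each profile centred on its own mean. Nearest to SAG29 was AT1G63520, at 0.091 log2 units. It read 7.56, 7.24 and 7.18 in induced and 4.02, 3.57 and 3.69 in uninduced replicates 1, 2 and 3, a difference of 3.57 beside the 3.54 of SAG29. The next were AT1G71695 at 0.287 and AT5G17700 at 0.292, with differences of 3.32 and 3.07. Among genes with a row naming a single gene SAG29 thus had 1 close match and then a gap.

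SWEET17 had several close matches, AT1G24440 at 0.031, AT4G22730 at 0.034 and AT3G26720 at 0.042, with differences of 0.60, 0.62 and 0.59. AT4G22730 read 7.64, 7.69 and 7.64 in induced and 6.99, 7.07 and 7.07 in uninduced replicates 1, 2 and 3. None of these 3 passed in limma (adjusted p 0.0583, 0.055 and 0.0632), so genes of nearly the same difference fell on either side of the threshold. SWEET11 was matched by AT1G69650 at 0.038, AT1G21010 at 0.059 and AT1G02460 at 0.084. AT1G69650 read 3.57, 2.75 and 2.60 in induced and 3.59, 3.49 and 3.13 in uninduced replicates 1, 2 and 3, so it shared the high induced replicate 1 of SWEET11 and the 2 low values beside it.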

How the data were processed

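For every row of a whole-transcript GeneChip the authors deposited a log2 expression value. Affymetrix Expression Console 1.3 is the tool named in the submitters' processing notes. Background correction, normalization, summarization and genome build are not given in the sources used here, so the values were taken unchanged and neither coordinates nor sequences are printed. Rows were matched to genes through the platform annotation and a RefSeq table (TAIR10.1). A gene with several rows was represented by the one with the highest mean. The induced minus uninduced contrast was fitted in limma 3.58.1 under R 4.3.3 (lmFit, eBayes, two-sided, no block, no filter), with Benjamini-Hochberg adjustment over 38408 rows and a threshold of 0.05. An exact permutation test of 3 against 3 arrays cannot go below a p of 0.1. The fit was tested on simulated data with independent noise on each array, which lack the shift and the equal values of replicate 1.

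The replicate numbers were used for the pair values and the replicate block, while the main fit has no block. Same-numbered arrays deviated together from the means of their groups, with correlations of 0.633, 0.268 and 0.248 across rows (rule: above 0.1 in every pair). The cross-numbered correlations among replicates 2 and 3 were 0.244 and 0.260. The check thus mainly sets replicate 1 apart and cannot show that replicates 2 and 3 are paired by number.

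The 3 genes and all lists were chosen with earlier results of these data known. Genes named are the 3 genes, every other SWEET gene with a row, every called gene of a list or else up to 3 with the smallest p, and the 3 rows most like each gene. Alternatives were quantile or median normalization, low signal filters, another variance prior, array weights, blocks, averaging a gene's rows, replicates 2 and 3 alone and leaving out each array. A fit without the rows of equal replicate 1 values was added after seeing the data. Figures were drawn with matplotlib 3.10.9.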

Additional observations from a re-analysis of the deposited data

How the results depend on the processing

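SAG29, SWEET17 and SWEET11 were picked with their values known, so their calls here describe the refits and are not a test. SAG29 kept its direction and its call in all 17 alternatives, at 3.45 to 3.61 with limma adjusted p between 4.3e-05 and 0.0389. SWEET17 kept its direction in all 17 (0.61 to 0.63) and passed in 6, its limma adjusted p lying between 0.00774 and 0.256. It was 0.61 with quantile normalization and 0.61 with array medians subtracted, where it missed the threshold (0.0715 and 0.074), as it did with a trended robust prior (0.0635). SWEET11 lay between -0.72 and -0.27 in the 14 alternatives that kept its row and passed in 0. Both low signal filters and the fit without equal replicate 1 values removed it. Called SWEET genes numbered 1 and not 2 with quantile normalization, array medians subtracted, the trended robust prior, the replicate block, replicates 2 and 3 alone, and in each fit without 1 array (1 to 1).

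The main fit called 369 of 38408 rows. The 25th percentile filter gave 691 of the 28806 rows it kept, and the median filter 827 of 19204. Without the rows of equal replicate 1 values the count was 536 of 26179. Over all 38408 rows it became 706 with the trended robust prior, 977 with array weights and 242 with the replicate block. It was 1106 where replicate 1 was blocked against the others, and 80 where replicates 2 and 3 were fitted alone. It lay between 48 and 167 without 1 array. Calls among the sucrose cleavage genes numbered 1 with either filter, the trended robust prior, array weights or without equal replicate 1 values, and 2 with replicate 1 as a block. The senescence list had 1 call (WRKY6) in those same 6 settings, and the list of sucrose synthesis and hexose phosphorylation had 1 with the trended robust prior. In each of these settings the count over all rows tested was also above 369, so nothing is read from these calls. Other carrier lists and the abscisic acid list had 0 calls in every alternative that gave a value. The cause of these changes was not tested. The replicate block changed no call of a gene named here other than SWEET17. No value could be had for lists without a measured member.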

Other observations

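Genes next to the 3 SWEET genes in the RefSeq gene order were looked up after the values had been seen, 2 protein-coding genes on each side. Beside SWEET17, DI21 differed by 0.03 ± 0.12, AT4G15930 by 0.07 ± 0.099 and AT4G15940 by 0.15 ± 0.11 (SE, n = 3 per group; limma adjusted p = 1.0, 1.0 and 0.969). Their mean signals were 9.20, 8.81 and 10.27 in induced cells and 9.17, 8.74 and 10.12 in uninduced cells. Of the 4 genes beside SAG29, 1 had a row naming it alone, AT5G13181, a dim row at -0.33 (1.0). Beside SWEET11, AT3G48760 was the 1 such gene, at 10.58 in induced and 10.57 in uninduced cells, a difference of 0.00 (1.0). None of these 5 neighbours passed in limma, beside 0.961% of all rows, and 0 of them had an unadjusted p under 0.05, beside 8.48%. With shares this low, nothing is read from these counts.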
